A study of Homo sapiens with 5 samples.

Results

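A set of 8 windows of the genome around genes that are not among the classic targets of NRF2 was described from a ChIP-seq experiment in BEAS-2B cells. The windows were drawn around ASPH, HTRA3, CLIP4, ZMIZ1, C6orf106, PVT1, APPBP2 and AKIRIN2 and selected on the height and fold of their peaks in the sulforaphane (SFN) list, so these values are given below as a description. The members are all peaks of either list whose summit lay in a window. They came to 11 of the 1925 peaks of the SFN list and 5 of the 2199 peaks of the vehicle list, over 1250 kb in all.

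BEAS-2B cells are an established human line from bronchial epithelium. The SFN group held 2 samples exposed to D,L-sulforaphane at 10 µM over 5 h and precipitated with a rabbit monoclonal antibody against NRF2. The vehicle group held 2 samples exposed to 0.1% DMSO over 5 h and precipitated with the same antibody, and a further vehicle-treated sample was precipitated with rabbit IgG. Each treatment had 1 deposited peak list and no value per sample, so the spread between replicates is unknown, no test between treatments was made, and every interval below covers counting error alone.

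NRF2 is a basic leucine zipper transcription factor that is held at low levels by KEAP1 and degraded. Electrophiles such as sulforaphane modify KEAP1, NRF2 then accumulates and binds, with a small MAF protein, the antioxidant response element near genes of glutathione synthesis, NADPH supply, iron storage and detoxification. In airway epithelium it is known for the defence against inhaled oxidants. None of the 8 genes is a textbook member of that programme. ASPH encodes a hydroxylase of aspartate and asparagine residues and also the calcium-handling protein junctin, and HTRA3 a secreted serine protease. CLIP4 belongs to a family of microtubule-binding linker proteins, and APPBP2 binds the amyloid precursor protein and microtubules. ZMIZ1 is a transcriptional coactivator related to the PIAS proteins, AKIRIN2 a nuclear protein of inflammatory gene expression and of proteasome import into the nucleus, and C6orf106 (now ILRUN) a regulator of antiviral and inflammatory transcription. PVT1 is a long non-coding RNA gene next to MYC.

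The sequence under the peaks, which are in hg19, was not used here. To show what the element looks like, the RefSeq promoters of GRCh38.p14, each from 250 bases before to 50 after a start, were searched on both strands for TGACNNNGC, the core of the antioxidant response element, and for a longer form in which an A follows the core. The table matched 5 of the 8 genes (CLIP4, HTRA3, C6orf106 as ILRUN, AKIRIN2 and APPBP2) with 7 promoters, and ASPH, ZMIZ1 and PVT1 were not matched. The core was found in 1 of these 7, against 13.3% of all 35116 promoters, and the longer form in the same promoter, against 3.18% of all. The AP-1 site TGACTCA, which can overlap the core, was in none of the 7 and in 4.95% of all. The promoter with the element was that of APPBP2, and its 30 bases at chr17:60526240-60526269 (GRCh38.p14, minus strand, written along the gene) are shown because this was the only match, with the longer form in capitals:
APPBP2 promoter: gccggcgtgcgcttacgtcaTGACGCCGCA
The element has 7 bases before the RefSeq start and 3 from the start on. The peaks were not placed against this promoter, because the builds differ, and a match is a description of the letters and not a bound site.

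The lists differed in depth. With 1 tag kept per position, the SFN list was built from 7448599 tags and the vehicle list on 1459665. SFN thus had 5.10 times as many, and both were called against the same 28125771 control tags. The kept tags were 32.3% of 23090154 SFN tags and 12.8% of 11377334 vehicle tags, so part of this difference arose at the filter. Heights are therefore given as tags at the summit, which is the caller's pileup, and as scaled tags, which are tags per 1000000 kept tags of the same list. The fold is the authors' value for each peak over the local control. The control level, computed back from fold and pileup, is a multiple of the genome average, and levels under 3 are called low here.

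The 11 SFN peaks had from 17 to 52 tags (median 25) and folds from 8.48 to 34.6 (median 15.2). By height alone they were ordinary for the list, whose median was 26 tags, while its median fold was 5.12. At these places the control was low: all 11 had a control level under 3, from 1.12 to 2.66, as did 37.7% of the SFN list. Among the 725 SFN peaks at a low control level the median was 9 tags and a fold of 6.33. A fold of 10 or more was reached by 10 of the 11, against 8.10% of the list and 15.9% of its peaks at a low control level, counts that the choice of windows fixed. The ranks depended on the measure: the tallest peak of all 8 windows lay in the top 5% of the list (96 peaks) by fold, that of 4 windows by −log10 q, and that of 0 windows by tags. In the plot of fold against control level the windows stand at the left, above most of the peaks at the same control level.

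**Figure D1:**
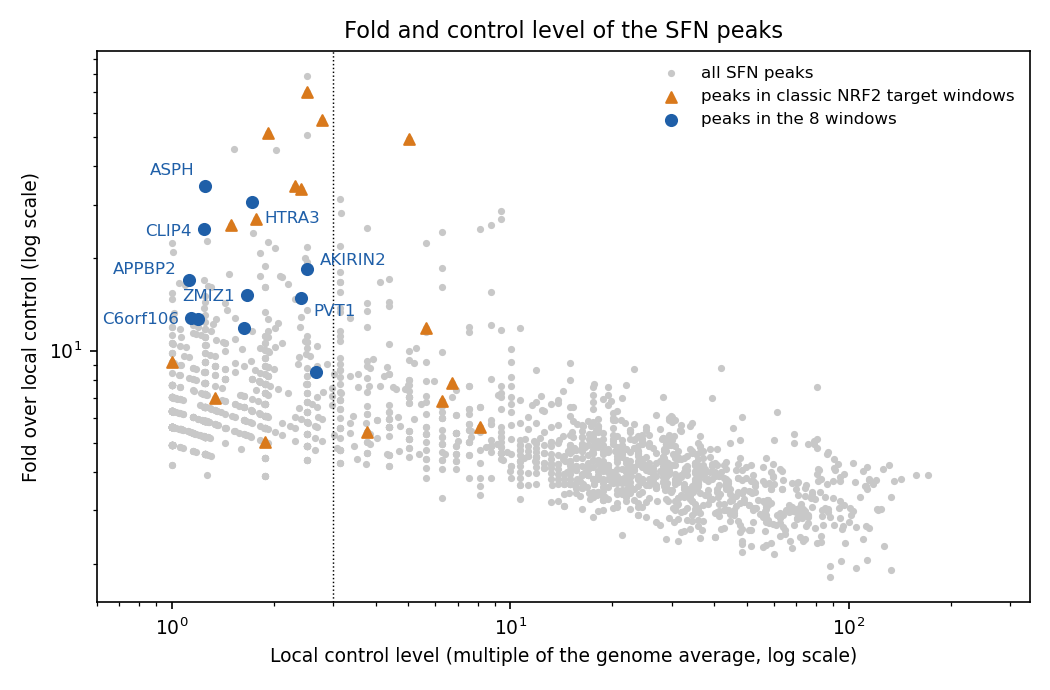
Fold over the local control (vertical, log scale) against the local control level as a multiple of the genome average (horizontal, log scale) for the 1925 SFN peaks (grey), the 11 peaks in the 8 windows (blue, labelled at the highest fold of each window) and the peaks in 11 windows of classic NRF2 targets (orange triangles). All 11 blue points lie left of the dotted line at a control level of 3, with folds from 8.48 to 34.6.

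ASPH held the strongest peak by fold. It lay at chr8:62634443-62634759, 317 bp wide with the summit at 62634622, and had 52 tags, or 6.98 scaled tags (exact 95% Poisson interval 5.21 to 9.15). Its fold of 34.6 ranked 9 in the SFN list, its −log10 q was 78.8, and its control level was 1.25. No other SFN peak lay in the window, the nearest SFN summit was 1127873 bp away, and the vehicle list had no peak in the window. The RefSeq neighbours of ASPH on the chromosome are CLVS1 and NKAIN3.

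HTRA3 had a peak of the same height at chr4:8305274-8305663, with 52 tags, a fold of 30.6 (rank 13), a −log10 q of 71.6 and a control level of 1.73. Here the vehicle list also had a peak, at chr4:8305419-8305714, with 7 tags, or 4.80 scaled tags (1.93 to 9.88), a fold of 7.04 and a −log10 q of 7.30. The peaks overlapped by 245 bp, which was 62.8% of the SFN peak and 82.8% of the vehicle peak, and their summits were 109 bp apart. Equal heights in the SFN list thus went with a vehicle peak at HTRA3 and none at ASPH, and this difference between the windows was not tested. HTRA3 lies between SH3TC1 and ACOX3 in the RefSeq order.

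The windows of the microtubule-linked genes CLIP4 and APPBP2 each held 1 SFN peak. At CLIP4 it was chr2:29353233-29353499, with 37 tags, or 4.97 scaled tags (3.50 to 6.85), a fold of 24.9 (rank 22), a −log10 q of 50.3 and a control level of 1.25. The vehicle list had no peak there. Its only peak in the CLIP4 window was chr2:29316431-29316634, with 5 tags and a fold of 5.44, whose summit was 36831 bp from the SFN summit, and the SFN list had no peak at that place. CLIP4 has PCARE and ALK as its protein-coding neighbours.

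At APPBP2 the SFN peak was chr17:58547144-58547439, with 24 tags, or 3.22 scaled tags (2.06 to 4.79), a fold of 17.0 (rank 46), a −log10 q of 28.7 and the lowest control level of the 11 (1.12). The vehicle peak chr17:58547230-58547383 lay wholly inside it, with 5 tags, or 3.43 scaled tags (1.11 to 7.99), a fold of 5.49 and summits 15 bp apart. A further vehicle peak of 5 tags, chr17:58601836-58601989 with a fold of 5.14, had its summit 54589 bp from the SFN summit and no SFN partner. The window thus held more vehicle peaks than SFN peaks, and 5 tags was also the median height of the 1206 vehicle peaks at a low control level. APPBP2 lies between CHCT1 and PPM1D.

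Of the nuclear regulators, AKIRIN2 had the tallest peak, chr6:88433050-88433351, with 37 tags, or 4.97 scaled tags (3.50 to 6.85), a fold of 18.5 (rank 38), a −log10 q of 39.2 and a control level of 2.51. The vehicle peak chr6:88433058-88433321 lay wholly inside it and covered 87.4% of it, with 6 tags, or 4.11 scaled tags (1.51 to 8.95), a fold of 6.06 and summits 21 bp apart. CLIP4 had the same 37 SFN tags at a lower control level and therefore a higher fold, and no vehicle peak at its SFN summit. AKIRIN2 lies between ORC3 and SPACA1.

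ZMIZ1 held a pair of SFN peaks whose summits were 3464 bp apart. The lower in coordinates, chr10:81077460-81077743, had 25 tags, or 3.36 scaled tags (2.17 to 4.95), a fold of 15.2 (rank 61) and a control level of 1.67. The upper, chr10:81080954-81081219, had 19 tags, or 2.55 scaled tags (1.54 to 3.98), a fold of 11.8 (rank 100) and a control level of 1.63. Their counting intervals overlapped, so their order in height was not resolved at this depth. The vehicle list had no peak in the window, and the RefSeq neighbours of ZMIZ1 among protein-coding genes are RPS24 and PPIF.

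C6orf106 also held a pair, with summits 6900 bp apart and 18 tags in each, or 2.42 scaled tags (1.43 to 3.82). The lower, chr6:34625188-34625491, had a fold of 12.8 (rank 82) and a control level of 1.14, and the upper, chr6:34632127-34632356, a fold of 12.6 (rank 87) and a control level of 1.19. The members of this pair were alike in height and control level and differed in width, with 304 and 230 bp. No vehicle peak was called in the window, and the neighbours of the gene are SPDEF and SNRPC.

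PVT1 held the most unequal pair, with summits 2972 bp apart. The lower, chr8:128863717-128864062, had 17 tags, or 2.28 scaled tags (1.33 to 3.65), and the upper, chr8:128866612-128867062, had 29 tags, or 3.89 scaled tags (2.61 to 5.59), and these intervals overlapped as well. The control levels of 2.66 and 2.40 were among the 3 highest of the 11, and the folds were 8.48 (rank 234) and 14.9 (rank 63). The upper peak had more tags than the taller ZMIZ1 peak but a lower fold, at a higher control level. The lower peak had the lowest fold of the 11 and was the only member under a fold of 10. No vehicle peak was called in the window. The only SFN peak within 50 kb outside any of the 8 windows was also here, chr8:128772830-128773064, with 17 tags, a fold of 11.6 and a control level of 1.31, its summit 27037 bp below the lower edge of the PVT1 window and 90985 bp from the nearer PVT1 summit. The vehicle list had no peak within 50 kb outside any window. In the RefSeq order PVT1 lies between MYC on the lower side and GSDMC.

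**Figure D2:**
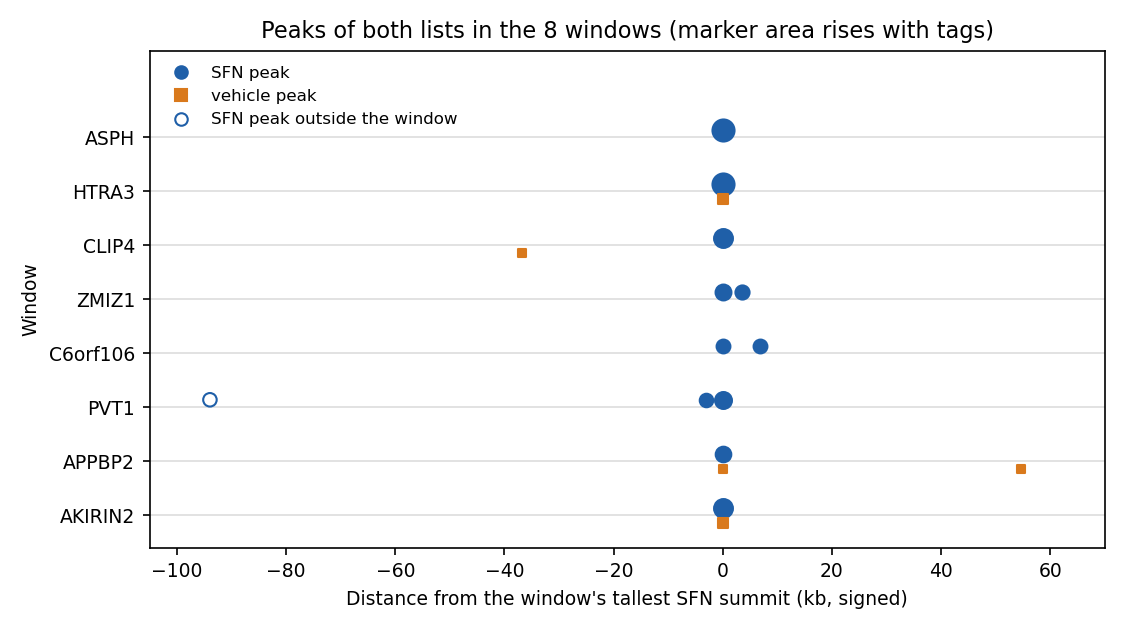
Position of every peak of the SFN list (blue circles) and the vehicle list (orange squares) in the 8 windows, as the distance in kb from the tallest SFN summit of the window (horizontal), with 1 row per window and marker area rising with tags. The open circle is the SFN peak 27037 bp outside the PVT1 window. Pairs of SFN peaks stand at ZMIZ1, C6orf106 and PVT1, and the vehicle peaks of HTRA3, APPBP2 and AKIRIN2 at 0 kb coincide with SFN peaks.

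Of the 11 SFN peaks 6 thus had another SFN summit within 10 kb, against 6.76% of the 725 peaks at a low control level and 9.20% of the 174 of these with a fold at least as high as the lowest member. The windows were chosen from the same SFN list, so nothing is read from this count. The summits lay at most 83 bp from the middle of their peaks, and the largest shift was that of the upper PVT1 peak, which was also the widest, at 451 bp. The widths ran from 230 to 451 bp (median 302). The other 81 SFN peaks with a low control level and from 17 to 52 tags had a median width of 276 bp, from 159 to 1151 bp, and a median fold of 12.7.

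The other question was which of these places also had a vehicle peak. Of the 11 SFN peaks 3 (27.3%) shared at least 1 bp with a vehicle peak, those of HTRA3, APPBP2 and AKIRIN2, against 37.9% of all SFN peaks, so the share was not above that of the list. Most shared peaks of the list lay at a higher control level, and at a low level 3.72% of SFN peaks were shared. Among low-control peaks with a fold at least as high as the lowest member it was 11.5%, and among those with from 17 to 52 tags 10.9%. These shares include the members. Without them, 7 of the other 81 low-control peaks with from 17 to 52 tags (8.64%) were shared. The members were selected on height and fold, and the 725 low-control peaks were not. Of the 11 members 6 stand in pairs, so they are not independent places. No interval is therefore given for the share of 3 in 11, and nothing is read from its distance to the other shares. Of the 5 vehicle peaks in the windows 3 overlapped an SFN peak, against 34.9% of the vehicle list and 2.32% of its 1206 peaks at a low control level, and windows placed on SFN peaks favour such overlaps. All 5 vehicle peaks had a low control level, and they were small, with from 5 to 7 tags.

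**Figure D3:**
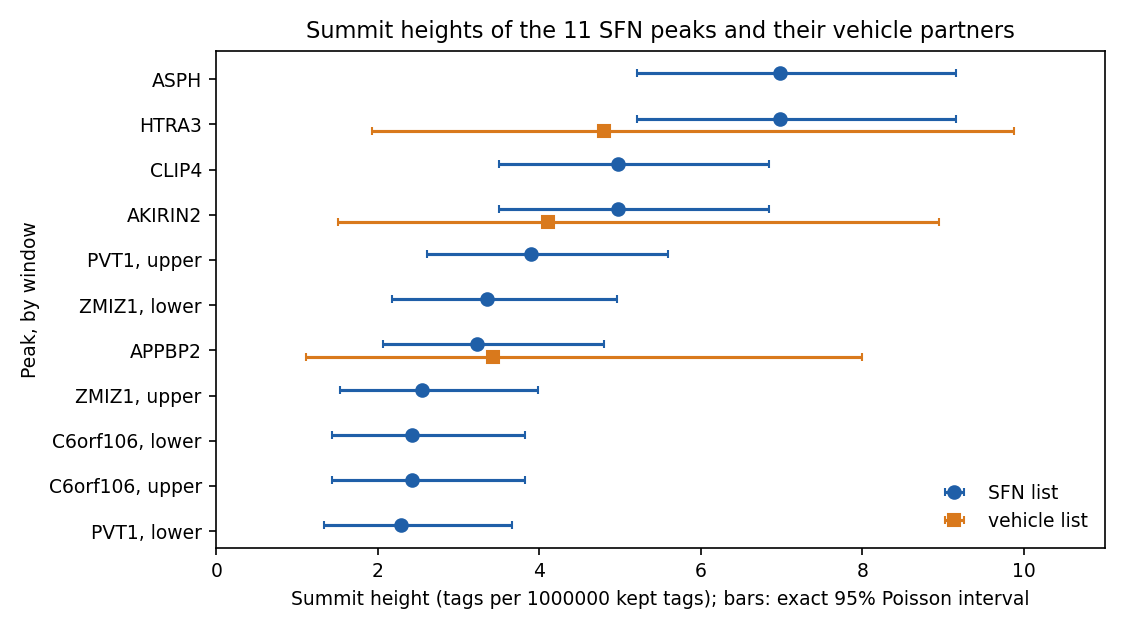
Summit height in scaled tags (horizontal) of the 11 SFN peaks (blue circles) and of the 3 vehicle peaks that overlap them (orange squares), with exact 95% Poisson intervals, ordered by SFN height. At HTRA3, AKIRIN2 and APPBP2 the SFN and vehicle intervals overlap, and no vehicle marker means that no overlapping vehicle peak was called.

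The 3 places with a peak in both lists were compared in height. The raw tags were 52 and 7 at HTRA3, 37 and 6 at AKIRIN2, and 24 and 5 at APPBP2. In scaled tags the SFN height was 1.46 times the vehicle height at HTRA3 (exact 95% interval 0.659 to 3.80), 1.21 times at AKIRIN2 (0.506 to 3.50) and 0.941 times at APPBP2 (0.352 to 3.16). All 3 intervals include equal heights and also an SFN height of 3 times the vehicle height, so neither a difference nor its absence was shown. The scaling takes every kept tag as equal and does not correct for the efficiency of the precipitations. With it, the median ratio of all 730 shared SFN peaks was 0.437, below the ratio at each of the 3 members, so where equality falls depends on the scaling.

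For comparison, 11 windows of classic NRF2 targets were read in the same way (NQO1, HMOX1, TXNRD1, FTH1, SRXN1, GCLM, GCLC, SLC7A11, ME1, TRIM16 and TRIM16L), with bounds set from general knowledge of hg19 and not checked against an annotation. Each held an SFN peak, and the highest fold per window ran from 6.85 to 69.9 (median 33.8), against 12.8 to 34.6 (median 17.7) in the 8 windows. The 8 windows were chosen for strong peaks and thus lie by fold inside the range of the classic targets. They lie above GCLC, ME1, SRXN1, SLC7A11 and GCLM, whose highest folds were 6.85, 7.02, 7.82, 9.14 and 11.8. This order holds for fold alone. The tallest peaks of these classic windows had 24, 24, 29, 12 and 39 tags, against 18 to 52 in the 8 windows. The control level was 6.27 at that GCLC peak, 6.72 at SRXN1 and 5.65 at GCLM, and a higher level lowers the fold. It was low at SLC7A11 (1.0) and at the ME1 peak with a fold of 7.02 (1.34), which had 10 tags. The 24 tags at ME1 are those of another peak, with a fold of 5.63 and a control level of 8.16. A shared SFN peak was present in 4 of the 11 classic windows and in 3 of the 8. At a low control level 3 classic windows had a shared peak, and there the scaled SFN height was 2.34 times the vehicle height at TRIM16 (exact 95% interval 1.30 to 4.63), 3.42 times at NQO1 (1.61 to 8.67) and 3.61 times at FTH1 (1.49 to 11.4). These intervals exclude equal heights, unlike those of HTRA3, AKIRIN2 and APPBP2, but the intervals of both sets overlap and the difference between the sets was not tested. An interval wholly above equal heights was also found outside both sets, at the SFN peak from chr16:88366742 (3.17 times, 1.68 to 6.75). Others outside both sets lay wholly below equal heights. These were at the SFN peaks from chr20:8996166 (0.131 times, 0.0383 to 0.411) and chr20:8996369 (0.196 times, 0.0689 to 0.557). The same held for the SFN peaks from chr1:110285720 (0.343 times, 0.134 to 0.944) and chr15:102521097 (0.454 times, 0.260 to 0.823). The peaks of TRIM16, NQO1 and FTH1 were also taller than the members, with 143, 122 and 92 SFN tags. A call in the vehicle list also limits the ratio from above: with 3 tags, the fewest of any vehicle peak at a low control level, it could not have passed 3.40 at HTRA3, 2.42 at AKIRIN2 and 1.57 at APPBP2. Among all 27 shared SFN peaks at a low control level, ordered from the lowest ratio, APPBP2 ranked 18, AKIRIN2 20 and HTRA3 21, and the 24 that are not members had a median ratio of 0.575.

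**Figure D4:**
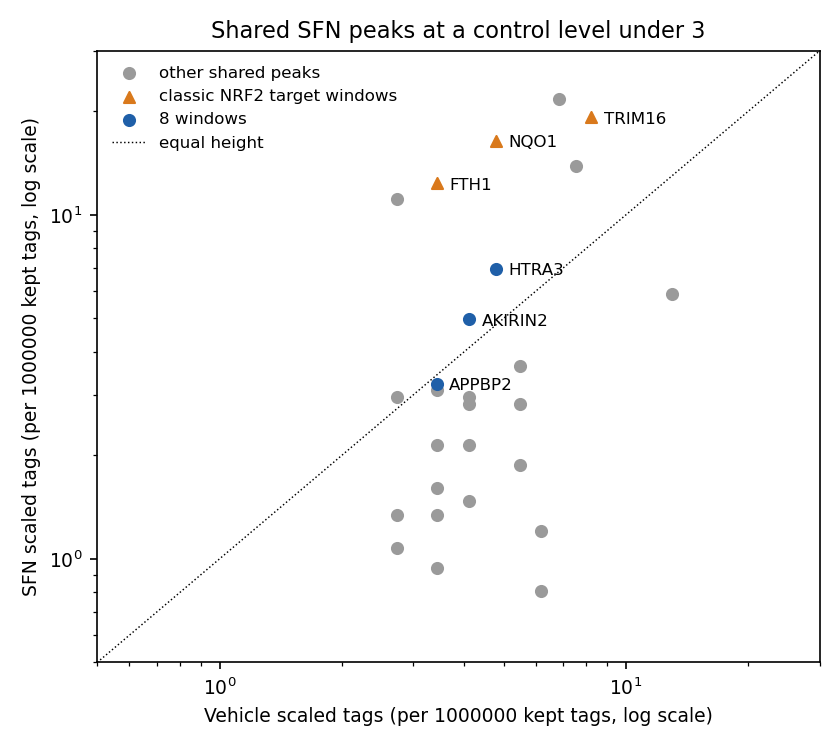
SFN height against vehicle height, both in scaled tags on log scales, for the 27 shared SFN peaks at a control level under 3: 3 in the 8 windows (blue), 3 in classic NRF2 target windows (orange triangles) and 21 others (grey), with a dotted line at equal height. HTRA3, AKIRIN2 and APPBP2 have ratios of 1.46, 1.21 and 0.941, and the classic targets lie above the line, with ratios from 2.34 to 3.61.

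The other 8 SFN peaks overlapped no vehicle peak. Brought to the vehicle depth, the height at ASPH would have been 10.2 tags (exact 95% Poisson interval 7.61 to 13.4) and at CLIP4 7.25 tags (5.11 to 9.99). The intervals of these computed heights are the SFN limits divided by the ratio of kept tags. They leave out the counting error of a vehicle count, which would make them wider. In the vehicle list 39 of the 1206 peaks at a low control level had 7 tags or more, and 87.4% had at most 5. At the upper PVT1 peak the height so computed was 5.68 tags (3.81 to 8.16) and at the taller ZMIZ1 peak 4.90 (3.17 to 7.23). The remaining 4, the upper ZMIZ1 peak, both C6orf106 peaks and the lower PVT1 peak, came to between 3.33 and 3.72 tags, near the 3 tags of the lowest vehicle peak. At these the absence of a vehicle call was not informative at this depth. At ASPH and CLIP4 the computed heights lay above those of the vehicle peaks called at HTRA3 (7 tags), AKIRIN2 (6) and APPBP2 (5). The windows were chosen on these same SFN heights, and the scaling does not correct for the efficiency of the precipitations. Nothing is therefore read from this order. A vehicle list holds called peaks alone, so the vehicle height at ASPH and CLIP4 is not known.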

How the data were processed

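The files were 2 peak lists, 1 per treatment, deposited by the authors. Per the file headers, each was called with MACS 2.1.0.20140616 from 1 treatment alignment and 1 control whose name holds input and IgG, with 36 bp tags, at most 1 tag per position and a q cutoff of 0.05. The header of the vehicle list names its alignment NT, and the list was taken as vehicle from its deposited name. The sources used here do not say whether samples were pooled. The tools named in the submitters' processing notes are BWA, MACS2 and CASAVA 1.4, and the build is hg19. The pileup is a signal in tags, the fold a ratio to the local control, and the −log10 q is that of the caller, all as deposited by the authors. Keeping 1 tag per position takes out amplified copies but can lower true summits.

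Summits were assigned to the windows, and overlaps and control levels, (pileup + 1) / fold − 1 over the genome average, were computed with Python 3.11.15, pandas 2.3.3 and scipy 1.17.1. Overlap and interval code was tested on simulated data. Intervals are exact Poisson intervals or, for ratios, exact conditional binomial intervals, at 95%. All peaks in the windows, and those within 50 kb outside, were named. The members, the windows of classic targets, the control limit of 3 and the ranges of fold and height were chosen with earlier results of these data known. RefSeq (GRCh38.p14) gave names and neighbours for 8 of 8 symbols, C6orf106 as an older one, and promoters for 5 of the 8 genes. A further classic target is not reported here. Whether a peak is exonic, intronic or intergenic was not determined.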

Additional observations from a re-analysis of the deposited data

How the results depend on the processing

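The 11 SFN peaks in the windows stayed 11 at a q of 1e-05 or less and at a control level under 3, and were 12 with windows widened by 50 kb. Neither limit could remove a peak from windows chosen for strong peaks. The lowest −log10 q of the 11 was 11.1, at the lower PVT1 peak, and all 11 were at a low control level already. The 3 peaks with a vehicle overlap stayed 3 with a reciprocal overlap of 50% or peaks at most 500 bp apart. They were 2 with summits at most 100 bp apart, which left out HTRA3, and 2 with vehicle peaks at a q of 1e-05 or less, which left out APPBP2. The 4 windows with a vehicle peak were 2 at that q, HTRA3 and AKIRIN2, and 4 with widened windows. The tallest peaks of 8 windows lay in the top 5% by fold, of 4 by −log10 q, of 0 by tags and of 5 by fold among peaks at a control level under 3. Of the 468 SFN peaks with more tags than any member, 459 had a control level of 3 or more. No paired analysis was possible because the lists hold no values per sample, and for the same reason no sample could be left out. The search of the peaks for the antioxidant response element, planned for a genome of the build, was not run. The 1459665 kept vehicle tags limit what a missing vehicle peak can show.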
